A study of Oryzias latipes with 48 samples.

Results

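Gene expression at clock hour 14, in the afternoon, was compared between the seasons in the brain of medaka (Oryzias latipes), a small freshwater fish that breeds in the warm, long-day part of the year. The libraries were chosen by their labelled hour alone and number 8 of the 48 in the series: 2 from the summer solstice, 2 from the autumn equinox, 2 from the spring equinox and 2 from the winter solstice. Each was made from a tissue block of ventral telencephalon, hypothalamus and pituitary. In every season the fish were held outdoors in natural conditions at 1 institute in Japan, and no agent or genetic change is named for any group. The sources used here do not give strain, age, sex or the number of fish per library. The same 4 seasons were also sampled at hours 2, 6, 10, 18 and 22 with 2 libraries each, so that the course of a gene over the day can be followed in each of them.

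The daily clock of vertebrate cells is a loop in which CLOCK and BMAL proteins switch on the period, cryptochrome and nr1d genes, whose products then repress the loop, so that each gene of the loop has its own hour of peak and trough. In zebrafish, light also switches on several clock and DNA repair genes directly, in the brain as in other tissues. The pituitary and hypothalamus, which are in the block, make the hormones that govern reproduction, growth and the response to stress. A gene that swings over the day can show a season difference at 1 hour that is missing or turned round at another, and the comparisons below give both the difference at hour 14 and the other 5 hours beside it.

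Levels are FPKM, that is, read fragments per length of transcript and per library total. The 8 libraries summed to 333138 to 350508 FPKM, and each had 23638 to 23913 genes above 0. The 2 libraries of a season correlated at 0.985 to 0.987 across genes, which are not independent replicates. Read counts were not used here, so depth is unknown. Neuronal markers summed to between 2755.9 and 3010.9 FPKM in summer and autumn, against 2295.6 to 2601.3 FPKM in spring and winter. Over the 8 libraries, pituitary markers summed to 3354.1 to 7373.9 FPKM and hypothalamic markers to 316.61 to 603.21 FPKM. Photoreceptor markers summed to 5.76 to 8.96 FPKM and muscle markers to 7.16 to 10.55 FPKM. An earlier analysis of these data found 3 spring libraries apart, at hours 2, 18 and 22. With those left out, 9726 genes were called at hour 14, against 9546 with them, and no count of genes in the comparisons below moved by more than 1.5 times. The labels do not say that the 2 libraries of a group are from separate fish, and p-values then cover only the spread between libraries. Which year, collection or batch a season belongs to is not stated, and season cannot be told apart from batch.

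Summer and autumn were set against spring and winter at hour 14. In total 9546 genes differed, 57.4% of the 16622 tested: 5849 were higher in summer and autumn and 3697 were lower. Most differences were small, with 286 genes at least 2-fold higher and 270 at least 2-fold lower. The 4 summer and autumn libraries and the 4 spring and winter libraries did not overlap for 7527 genes, 45.3% of those tested. The difference is the mean log2(FPKM + 1) of the 4 summer and autumn libraries minus that of the 4 spring and winter libraries, printed with its standard error. A gene was called where the adjusted p of limma's moderated test was below 0.05 by the Benjamini-Hochberg method over all 16622 genes. A fold is 2 to the power of this difference, which makes the change of genes at low FPKM look smaller. The lean towards higher calls (61.3% of calls) depended on the scaling: after median-ratio scaling 4634 genes were higher and 4671 lower (49.8% higher), and after quantile normalization 4840 were higher and 4493 lower (51.9% higher). The median gene stood at 0.08 in the values as deposited, at 0.0026 after median-ratio scaling and at 0.012 after quantile normalization. When hour 14 was fitted as 2 groups of 4 libraries, a spread that also holds the gap between the seasons of a side, 8042 genes were called, 4971 higher and 3071 lower.

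The same comparison called 54.3% of genes at hour 2, 52.0% at hour 6, 53.1% at hour 10, 57.3% at hour 18 and 55.6% at hour 22. Of the genes called at hour 14, 4546 (27.3% of those tested and 47.6% of those called) were called in the same direction at all 6 hours, 2878 of them higher in summer and autumn and 1668 lower. The difference at hour 14 minus the mean of the 5 other hours was tested for each gene, here called the hour test. It called 1393 genes (8.38%), 749 with a more positive difference at hour 14 (4.51%) and 644 with a more negative one (3.87%). Which side had more genes depended on the settings: after median-ratio scaling 638 were more positive and 701 more negative, after quantile normalization 667 and 691, and against hours 10 and 18 alone 660 genes were called, 248 more positive and 412 more negative.

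A reversed gene was called at hour 14 and called in the opposite direction at 1 or more other hours, with a called difference between those hours. There were 462 reversed genes (2.78% of those tested), 225 higher and 237 lower at hour 14, and 235 of them were turned round at hour 2, the most of any hour. The reversal was seen at exactly 1 other hour for 279 genes and at all 5 other hours for 5 genes. A season difference was absent at hour 14, although called over the mean of the other hours and with the hour test called, for 266 genes (1.60%). Only 91 genes (0.547%) were called at hour 14, at no other hour and by the hour test in the same direction. That last count fell to between 45 and 68 when any 1 of the 8 libraries was left out.

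**Figure D1:**
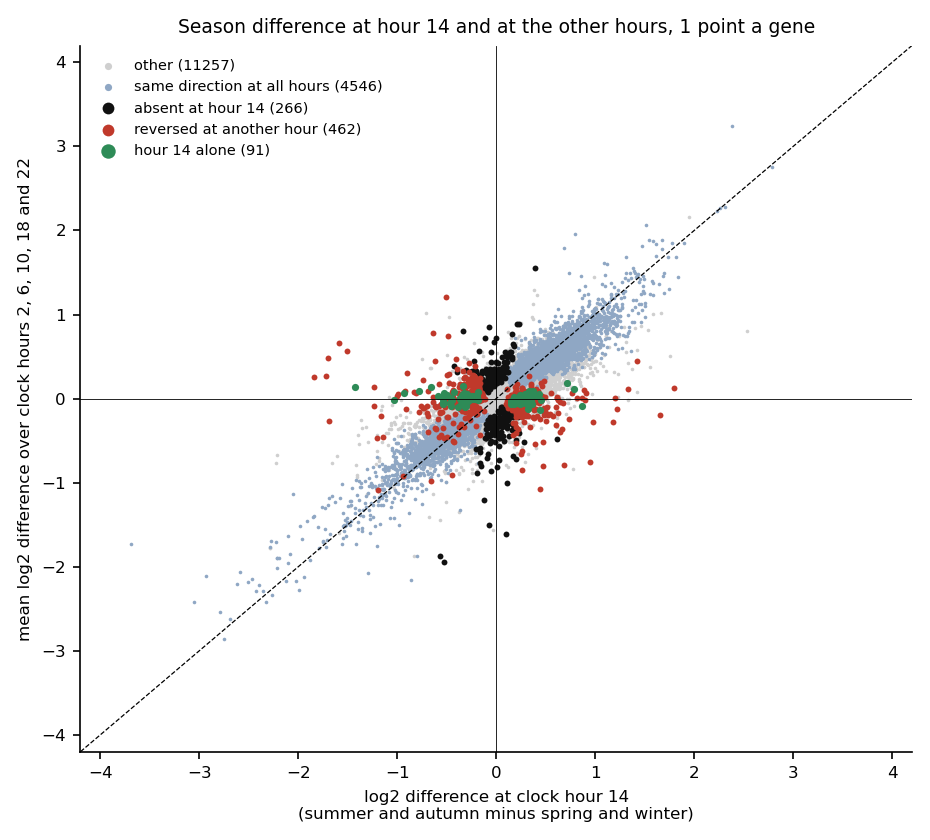
Each point is 1 of the 16622 tested genes, with its log2 difference (summer with autumn minus spring with winter) at hour 14 on the x axis and the mean of that difference over the 5 other hours on the y axis; the dashed line marks equal values. The 4546 genes called alike at all hours lie along the line, while the 462 reversed genes, the 266 absent at hour 14 and the 91 at hour 14 alone lie around the axes.

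Hour 14 was the hour at which summer and autumn differed in the fewest genes. At hour 14, 126 genes differed between them (0.758%), 79 higher in summer and 47 lower, and 1864 genes had an unadjusted p below 0.05. The same pair differed in 801, 791, 1015, 3207 and 3153 genes at hours 2, 6, 10, 18 and 22. The median absolute log2 difference, which does not depend on a threshold, was 0.11 at hour 14 and 0.13, 0.14, 0.15, 0.18 and 0.18 at those hours. The count of 126 fell to between 30 and 63 when 1 of the 4 summer and autumn libraries was left out, and to 46 when the hour-14 libraries were fitted alone. Spring and winter differed in 1825 genes at hour 14 (11.0%), 845 higher in spring and 980 lower, against 1721, 1205, 1497, 2793 and 4421 genes at hours 2, 6, 10, 18 and 22. That count fell to between 777 and 886 without 1 of the spring or winter libraries, and to 1157 with the hour-14 libraries alone. The 4 mixed pairs differed in 7362 to 7598 genes at hour 14 (44.3% for summer against spring, 45.7% for summer against winter, 44.7% for autumn against spring and 44.6% for autumn against winter).

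Whether a season pair differed otherwise at hour 14 than over its 5 other hours was tested as well, in a comparison added after the data had been seen. The pairs that held autumn against spring or winter had the most such genes: 1753 for autumn against spring (10.5%) and 1211 for autumn against winter (7.29%). Summer against spring had 420 (2.53%), summer against winter 240 (1.44%), spring against winter 491 (2.95%) and summer against autumn 166 (0.999%). Pairs that name the same season share its libraries. Without 1 of the libraries of their own 2 seasons, these counts were 906 to 1147 for autumn against spring, 570 to 629 for autumn against winter, 163 to 285 for summer against spring, 70 to 96 for summer against winter, 157 to 227 for spring against winter and 61 to 82 for summer against autumn.

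**Figure D2:**
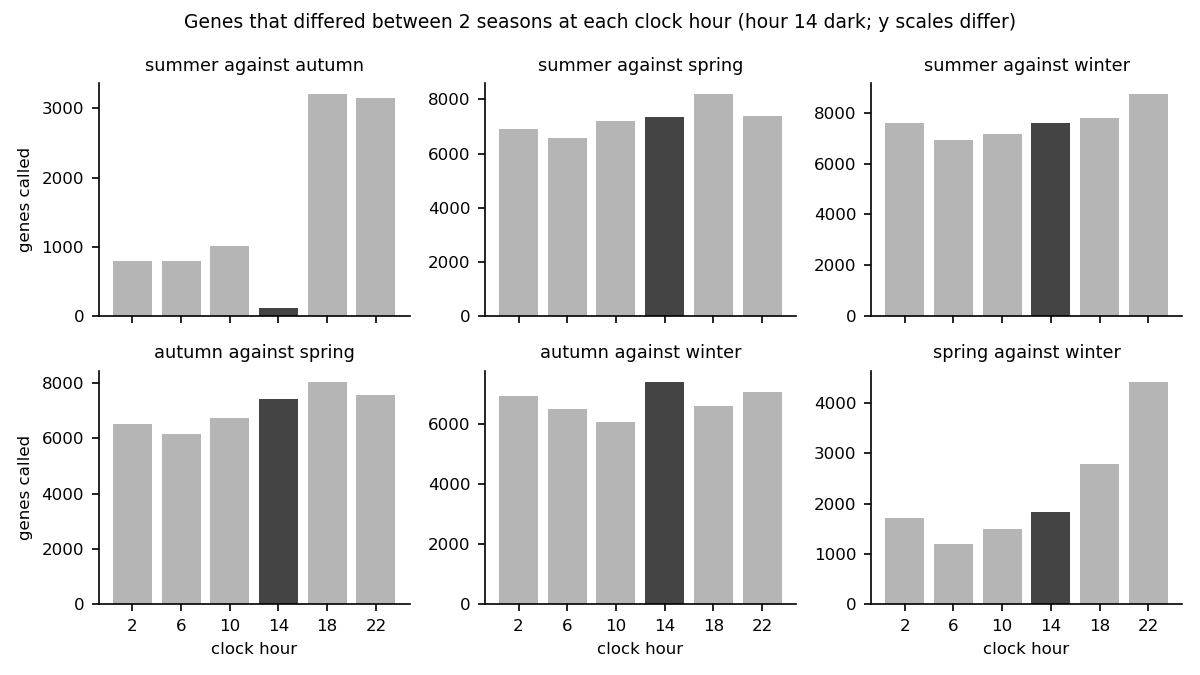
Bars give the number of the 16622 tested genes called between 2 seasons at each clock hour, 1 panel per pair, with hour 14 dark; the y scales differ between panels. Summer against autumn has 126 genes at hour 14 and 3207 at hour 18, whereas the pairs of summer or autumn with spring or winter have 7362 to 7598 at hour 14.

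Among the 20 tested clock repressors, which close the daily loop, 14 were lower and 2 higher in summer and autumn at hour 14. Of all genes tested, 22.2% were lower and 35.2% higher. The hour test called 13 of the 20 as more negative at hour 14 and 4 as more positive, beside 3.87% and 4.51% of all genes. The median difference of the 20 was -0.90, beside 0.08 for all genes. This lean was shared with the later hours: 13 were lower and 2 higher at hour 18, and 15 and 4 at hour 22. Among all 16622 genes, 3354 were lower and 6169 higher at hour 18, and 3675 and 5571 at hour 22. The 20 were closer to even at hours 2, 6 and 10, with 7, 8 and 7 lower and 9, 8 and 7 higher. Of the 20, 8 were reversed at another hour and 3 were absent at hour 14, beside 2.78% and 1.60% of all genes.

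The lowest member, with the lowest difference of all genes named here, was LOC101172421, a copy of CIART, a repressor of the CLOCK and BMAL pair. It had 2.89 and 3.48 FPKM in summer and 2.84 and 2.27 FPKM in autumn, against 37.8 and 37.96 FPKM in spring and 64.4 and 60.1 FPKM in winter. No summer or autumn library came near a spring or winter one, and the difference was -3.69 ± 0.08 (adjusted p = 6.1e-24), or 12.9-fold lower. It was called with the same sign at the 5 other hours, at -0.70, -0.85, -1.67, -3.10 and -2.32 for hours 2, 6, 10, 18 and 22, and the hour test gave -1.96 ± 0.08 (adjusted p = 3.7e-16). Over the 6 hours its group means ran from 2.29 to 40.9 FPKM in summer, 2.56 to 50.1 in autumn, 37.9 to 102 in spring and 49.9 to 63.5 in winter, and the summer and autumn means at hours 14, 18 and 22 were below every spring and winter mean. A second copy of CIART, LOC101157319, had 2.99 and 2.96 FPKM in summer and 2.23 and 3.29 FPKM in autumn, against 6.42 and 5.68 FPKM in spring and 9.85 and 11.4 FPKM in winter. Its 2 groups did not overlap either, at -1.23 ± 0.08, but it was higher in summer and autumn at hour 2 (0.59) and hour 6 (0.98). The third copy, LOC101174020, was lower at hour 14 (-0.84 ± 0.12) and higher at hour 2 (0.33).

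A turn of direction over the day was wide in the nr1d genes, which encode REV-ERB receptors that repress the BMAL genes. LOC101174341, a member of this family, had 11.1 and 13.2 FPKM in summer and 7.45 and 8.81 FPKM in autumn, against 37.6 and 34.1 FPKM in spring and 34.03 and 34.8 FPKM in winter. All 4 summer and autumn libraries were below all 4 spring and winter libraries, 3.30-fold lower (-1.72 ± 0.07, adjusted p = 6.9e-18). At hour 2 the difference was 1.42 and at hour 22 it was 1.49, both called in the opposite direction. In summer and autumn the gene had its low levels at hours 10 and 14, at 7.66 and 12.2 FPKM in summer and 14.3 and 8.13 FPKM in autumn, against 34.97 to 46.95 FPKM over the whole day in spring and 29.1 to 38.5 FPKM in winter. Its relative LOC101173939 was lower at hour 14 (-1.59 ± 0.10) and higher at hours 2 and 22 (2.52 and 1.75). The other tested nr1d entries, LOC101156434 (-1.15 ± 0.17) and LOC101163230 (-0.83 ± 0.13), were lower at hour 14 without a called rise at another hour.

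The period genes did not move alike at hour 14. per1 had 4.33 and 3.96 FPKM in summer and 5.01 and 3.74 FPKM in autumn, against 14.9 and 14.3 FPKM in spring and 17.7 and 16.7 FPKM in winter, and the groups did not overlap (-1.68 ± 0.10, adjusted p = 4.1e-14). It was higher in summer and autumn at hours 2 and 6 (0.40 and 0.81) and lower at hours 18 and 22. The period 2 copy LOC101161338 was also lower at hour 14 (-1.48 ± 0.09), whereas per2 had 11.7 and 10.2 FPKM in summer and 13.4 and 11.3 FPKM in autumn, against 11.1 and 10.4 FPKM in spring and 12.7 and 11.3 FPKM in winter. These groups overlapped, at 0.03 ± 0.11 (adjusted p = 0.86), while per2 was lower in summer and autumn at hour 2 (-1.77), hour 6 (-0.80) and hour 22 (-1.57) and higher at hour 10 (0.52). The period 3 gene LOC101159817 did not pass the test at hour 14 either (0.11 ± 0.07, adjusted p = 0.21), was higher at hours 6 and 10 and was lower at hours 18 and 22.

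Cryptochromes, the partners of the period proteins, differed between copies in the direction of the season difference. LOC101160902, a cry1 copy, had 1.74 and 2.06 FPKM in summer and 2.20 and 2.59 FPKM in autumn, against 25.4 and 25.6 FPKM in spring and 25.4 and 23.6 FPKM in winter, 8.29-fold lower with no overlap (-3.05 ± 0.14). Another cry1 copy, LOC101164536, went the other way, with 53.02 and 45.5 FPKM in summer and 43.2 and 44.8 FPKM in autumn, against 19.1 and 16.97 FPKM in spring and 12.7 and 13.8 FPKM in winter, again without overlap (1.53 ± 0.09). The entries LOC101174986 and LOC101167667 were absent at hour 14 (-0.12 ± 0.09 and -0.16 ± 0.09; called lower at -0.22 after quantile normalization for LOC101174986 and at -0.25 after median-ratio scaling for LOC101167667) and lower in summer and autumn at hours 2, 6 and 22. The cry2 gene LOC101173389 was lower at all 6 hours, by -0.90 ± 0.06 at hour 14. Closely related copies can share reads, and the counting of such reads is not described in the sources used here.

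Of the remaining repressors, bhlhe41 and 2 of the 3 CIPC genes were reversed. bhlhe41, which blocks the DNA sites that CLOCK and BMAL use, had 23.5 and 24.3 FPKM in summer and 26.6 and 28.2 FPKM in autumn, against 52.5 and 45.8 FPKM in spring and 46.8 and 49.6 FPKM in winter. The groups did not overlap at -0.90 ± 0.06, whereas the differences at hours 2 and 6 were 1.24 and 1.54, both called higher. Of the 3 CIPC entries, whose products bind CLOCK, LOC101157237 (-0.48 ± 0.10) and LOC101170972 (-1.16 ± 0.07) were lower at hour 14 and higher at hours 2 and 6. The third entry, LOC101163864, was higher at hour 14 (0.30 ± 0.08).

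**Figure D3:**
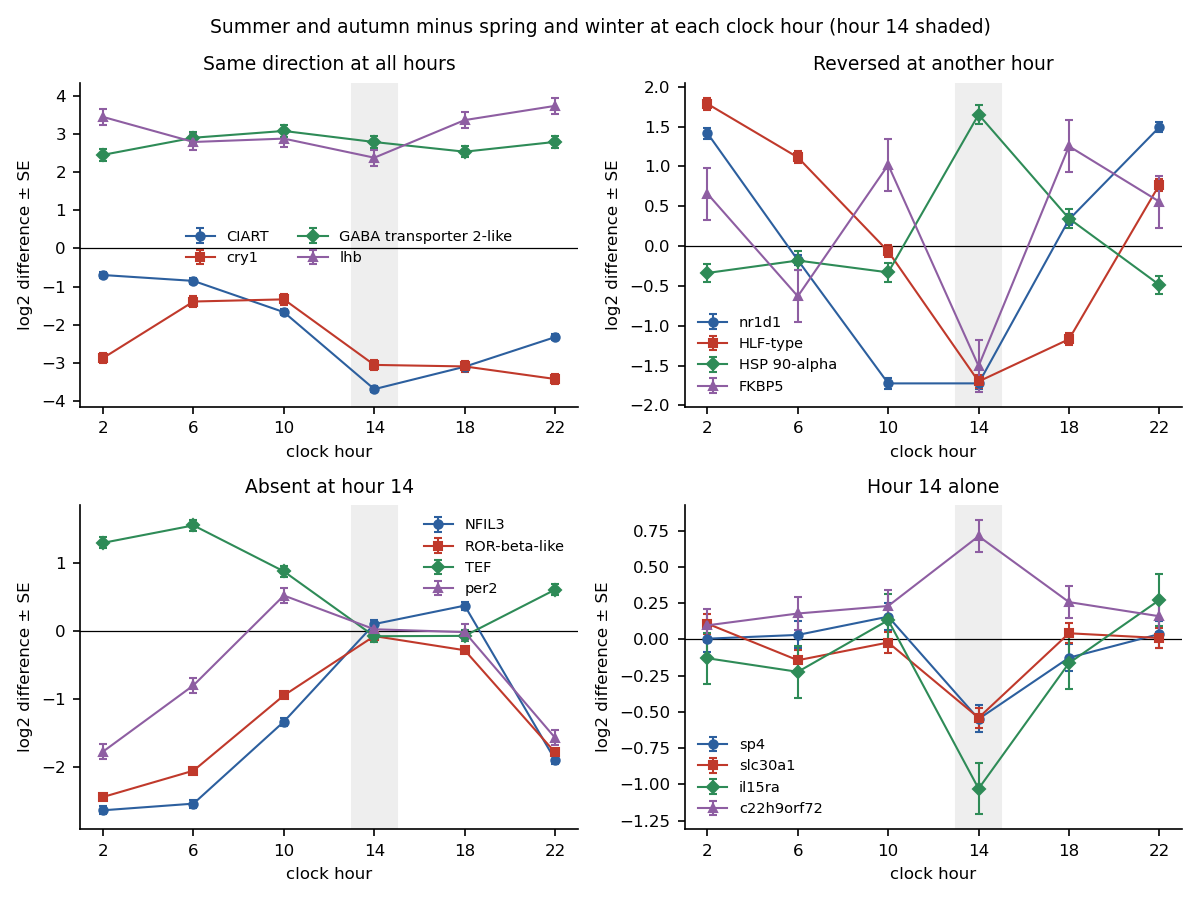
The log2 difference (summer with autumn minus spring with winter) with its standard error is drawn against clock hour for 4 example genes of each kind, with hour 14 shaded. CIART and cry1 stay below 0 and the GABA transporter and lhb above 0 at all hours; nr1d1, the HLF-type gene, HSP 90-alpha and FKBP5 cross 0; NFIL3, ROR-beta-like, TEF and per2 touch 0 at hour 14; sp4, slc30a1, il15ra and c22h9orf72 leave 0 at hour 14.

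The activators of the loop were closer to even at hour 14. Of 11 tested, 3 were higher and 3 lower in summer and autumn, shares near the 35.2% and 22.2% of all genes. The hour test called 6 as more positive at hour 14 and 0 as more negative, beside 4.51% and 3.87% of all genes. After median-ratio scaling 2 were higher and 5 lower. The largest hour effect was that of LOC101170052, a ROR-beta-like nuclear receptor (ROR receptors switch on BMAL genes). It had 48.5 and 47.9 FPKM in summer and 39.5 and 40.6 FPKM in autumn, against 44.5 and 40.7 FPKM in spring and 49.1 and 51.8 FPKM in winter. Summer and winter libraries stood above autumn and spring ones, and the groups of 4 overlapped (-0.07 ± 0.04, adjusted p = 0.16; called lower at -0.16 after median-ratio and -0.11 after quantile scaling). At the other hours it was lower in summer and autumn at every hour, at -2.44, -2.05, -0.95, -0.28 and -1.79 for hours 2, 6, 10, 18 and 22, so the hour test gave 1.43 ± 0.05 (adjusted p = 4.5e-18). The BMAL-type gene LOC101159313 was slightly higher at hour 14 (0.20 ± 0.08), a call lost after median-ratio scaling (0.12) and without summer library 1 (0.20), summer library 2 (0.20), autumn library 1 (0.19), spring library 1 (0.20) or winter library 2 (0.18), and lower at hours 2, 6 and 10. The CLOCK copy LOC101165450 was higher at hour 14 (0.34 ± 0.05) and lower at hours 2 and 6. The NPAS2-type gene LOC101172430, a stand-in for CLOCK in the brain, was lower at hour 14 by -0.38 ± 0.05 and at hour 6 by -1.71.

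PAR bZIP factors and their antagonist NFIL3 pass clock time to other genes through a shared DNA site. Of 8 tested, 3 were higher and 3 lower at hour 14, beside 35.2% and 22.2% of all genes. Of the 8, 4 were reversed at another hour and 2 were absent at hour 14, beside 2.78% and 1.60% of all genes. LOC101163688, an HLF-type PAR bZIP factor, had 10.6 and 8.51 FPKM in summer and 10.2 and 8.71 FPKM in autumn, against 37.02 and 34.5 FPKM in spring and 30.04 and 30.8 FPKM in winter. No library of summer or autumn overlapped with spring or winter, 3.25-fold lower (-1.70 ± 0.08, adjusted p = 1.6e-16), whereas the difference was 1.79 at hour 2 and 1.11 at hour 6. The TEF copy LOC101159928 was absent at hour 14 (-0.08 ± 0.08) and higher at hours 2, 6, 10 and 22, and the TEF copy LOC101172818 was reversed, at -0.93 ± 0.10 against 0.58 at hour 2. The NFIL3 gene LOC101175377 had 17.8 and 17.98 FPKM in summer and 14.8 and 14.9 FPKM in autumn, against 12.1 and 12.9 FPKM in spring and 18.7 and 17.8 FPKM in winter, with overlapping groups (0.10 ± 0.06, adjusted p = 0.15). At hours 2, 6, 10 and 22 it was lower in summer and autumn, with -2.64 at hour 2, at hour 18 it was higher (0.37), and the hour test gave 1.71 ± 0.07 (adjusted p = 2.2e-17).

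Light-regulated and DNA repair genes stood higher in summer and autumn at hour 14. Of 9 tested, 6 were higher and 1 lower, beside 35.2% and 22.2% of all genes, with a median difference of 0.65. The hour test called 8 as more positive at hour 14 and 0 as more negative, beside 4.51% and 3.87% of all genes. The lean was not particular to hour 14, as 7 were higher and 1 lower at hour 10. In contrast, 7 were lower at each of hours 2, 6 and 22, with 1, 0 and 1 higher. Hour 18 had 3 higher and 2 lower. Among all 16622 genes, 5158 were higher and 3672 lower at hour 10, and 3785, 3425 and 3675 were lower at hours 2, 6 and 22. lonrf3, which encodes a protein with RING and LON domains, had 8.06 and 7.21 FPKM in summer and 8.20 and 8.10 FPKM in autumn, against 4.16 and 3.85 FPKM in spring and 5.05 and 5.15 FPKM in winter. All 4 summer and autumn libraries were above all 4 spring and winter libraries (0.69 ± 0.09, adjusted p = 2.7e-07), and the gene was lower at hours 2, 6 and 22 (-2.03, -1.67 and -1.49). ddb2, which detects ultraviolet damage in DNA, was higher at hour 14 (0.67 ± 0.13) and lower at hours 2 (-0.95), 6 (-0.43) and 22 (-0.84). xpc, another damage sensor, was higher at hour 14 with 10.3 ± 0.55 FPKM in summer and autumn, against 5.25 ± 0.28 FPKM in spring and winter (SD, n = 4 each), and lay close to 0 at hours 2 and 6 (-0.09 and -0.04). The lonrf1 copies LOC101171754 and lonrf1 were higher at hours 10 and 14 (0.65 ± 0.07 and 0.25 ± 0.04 at hour 14) and lower at hours 2, 6 and 22. neil1, a base excision glycosylase, was higher by 0.98 ± 0.12. lonrf2 and the photolyase gene LOC100049426, which repairs DNA with the energy of light, were absent at hour 14 (0.13 ± 0.07 and 0.17 ± 0.12) and lower in summer and autumn at hours 2, 6 and 22. The hour test of LOC100049426 was not called without summer library 1 (0.48) or autumn library 1 (0.48). Cryptochrome DASH (LOC101168329), a photolyase relative, was the 1 member that was lower, at all 6 hours (-0.73 ± 0.06 at hour 14).

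**Figure D4:**
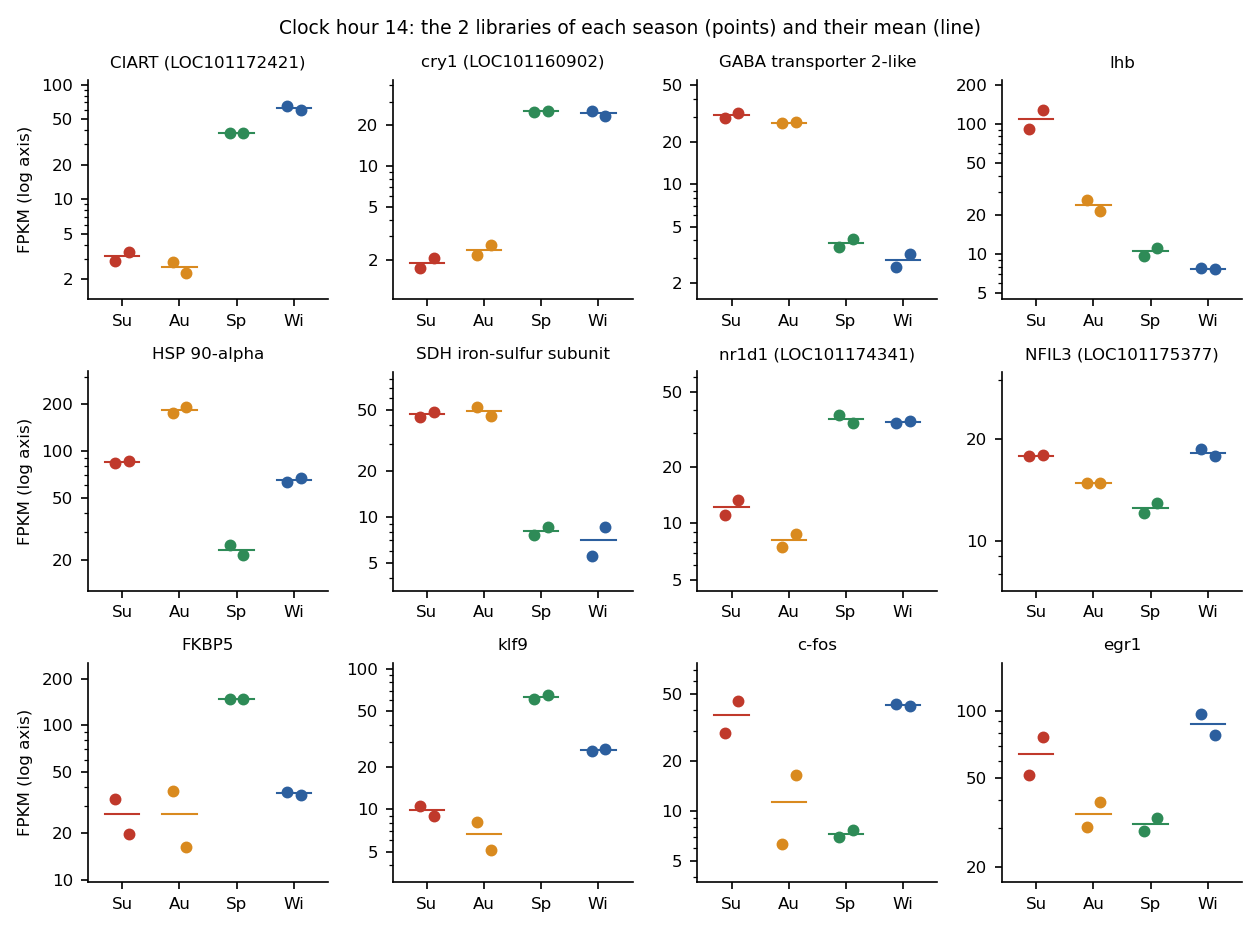
Points are the 2 libraries of each season at hour 14 (Su summer, Au autumn, Sp spring, Wi winter), lines their mean, on a log FPKM axis, for 12 genes. CIART, cry1, the GABA transporter, lhb, HSP 90-alpha, the SDH subunit, nr1d1 and klf9 show no overlap between summer with autumn and spring with winter, while c-fos and egr1 are high in summer and winter.

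Heat shock proteins and their helpers fold other proteins and rise in many cells under heat and other stress. Of the 41 tested (62 are in the table), 23 were higher and 9 lower in summer and autumn at hour 14, beside 35.2% and 22.2% of all genes. The hour test called 15 as more positive and 4 as more negative at hour 14, beside 4.51% and 3.87% of all genes. The 4 more negative members were hsf2, a second heat shock factor (-0.43 ± 0.08), and the DnaJ genes dnajb5 (-0.53 ± 0.08), LOC101162427 (-0.27 ± 0.06) and LOC101174218 (-0.16 ± 0.05). The median difference was 0.20, and 13 members were reversed at another hour, beside 2.78% of all genes. After median-ratio scaling 18 were higher and 10 lower. By season pair, the hour-14 lean was clearest against spring. Summer minus spring gave 22 positive and 5 negative calls, and autumn minus spring 24 and 5. Autumn minus winter gave 16 and 9. Summer minus winter was near even at 10 and 8, with a median of -0.06, beside 0.06 for all genes. Spring minus winter gave 1 and 15. All 16622 genes gave, in turn, 4547 and 2815, 4672 and 2763, 4468 and 2951, 4503 and 3095, and 845 and 980.

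The member with the widest hour effect was LOC101169506, which encodes HSP 90-alpha, the stress-inducible cytosolic HSP90. It had 82.99 and 86.04 FPKM in summer and 176 and 191 FPKM in autumn, against 24.9 and 21.4 FPKM in spring and 63.1 and 67.3 FPKM in winter. Every autumn library was above every other library, summer came next, and spring was lowest. The groups did not overlap at 1.65 ± 0.12 (3.14-fold higher, adjusted p = 2.1e-12). At hours 2, 10 and 22 the gene was lower in summer and autumn (-0.34, -0.33 and -0.49), at hour 18 it was higher (0.35), and the hour test gave 1.85 ± 0.13 (adjusted p = 2.4e-11). The autumn mean was 183 FPKM at hour 14 and 29.8 to 37.5 FPKM at the 5 other hours. In summer the mean was 84.5 FPKM at hour 14, 109.5 FPKM at hour 18 and 33.1, 35.2, 28.7 and 30.4 FPKM at hours 2, 6, 10 and 22. Spring ran from 23.2 to 29.5 FPKM and winter from 49.3 to 76.8 FPKM over the day. At hours 2, 10 and 22 both winter libraries were above all others, and spring overlapped with summer. The lower pooled values at those hours thus came with high winter levels alone.

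HSP70 proteins bind unfolded stretches of other proteins. Of this family, LOC111947723 and LOC100125490 had their highest hour-14 libraries in autumn and their lowest in spring. Another member, hspa5, given further below, was also lowest in spring but had its highest library in winter. The HSP70 gene LOC111947723 had 4.26 and 3.05 FPKM in summer and 6.55 and 7.33 FPKM in autumn, against 0.89 and 1.18 FPKM in spring and 4.18 and 3.48 FPKM in winter. Autumn was highest and spring lowest, and summer overlapped with winter (0.95 ± 0.17, adjusted p = 2.5e-05). It was lower in summer and autumn at hours 2, 6, 10 and 22. At hours 2, 6 and 22 winter alone was high, and spring overlapped with summer and autumn. The hour-2 values were 13.96 and 17.08 FPKM in winter and 0.81 and 2.05 FPKM in spring. The heat shock cognate gene LOC100125490 was also lower at hours 2, 6, 10 and 22. It was higher at hour 14 by 0.47 ± 0.12, although both winter libraries (36.87 and 37.23 FPKM) were then above both summer ones (35.65 and 29.51 FPKM). Of the co-chaperones, stip1, which joins HSP70 to HSP90, was 0.19 ± 0.04 at hour 14 (not called after median-ratio scaling, at 0.10) and between -0.33 and -0.26 at the other hours, all called lower. fkbp4, a partner of HSP90 and steroid receptors, had 51.4 and 48.5 FPKM in summer and 50.1 and 56.9 FPKM in autumn, against 36.5 and 36.8 FPKM in spring and 43.3 and 45.9 FPKM in winter, without overlap (0.35 ± 0.06), and was likewise lower at each other hour. The DnaJ gene LOC101166714 was higher at hours 14 and 18 (0.26 and 0.87) and lower at hours 2, 6, 10 and 22. Its hour-14 call was lost after median-ratio scaling (0.17) and without summer library 1 (0.23), autumn library 1 (0.24), autumn library 2 (0.27), spring library 1 (0.26), spring library 2 (0.25), winter library 1 (0.27) or winter library 2 (0.25). hsf1, the transcription factor that switches these genes on, was higher at all 6 hours, with 65.5 and 72.5 FPKM in summer and 59.7 and 69.2 FPKM in autumn, against 29.7 and 30.3 FPKM in spring and 32.9 and 32.6 FPKM in winter (1.06 ± 0.07, hour test 0.58 ± 0.08). hsp90ab1, the constitutive HSP90, was higher at all 6 hours too (0.64 ± 0.05), and hspa4l, an HSP110-type exchange factor, was absent at hour 14 (0.04 ± 0.04) and lower at the 5 other hours. The hour-14 differences of LOC100125490, stip1 and LOC101166714 were not called with hour 14 as 2 groups of 4.

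Outside that list, 2 further genes had their autumn peak at hour 14. LOC101170091, annotated as the iron-sulfur subunit of succinate dehydrogenase, a respiratory chain enzyme, had 45.2 and 48.6 FPKM in summer and 52.6 and 46.04 FPKM in autumn, against 7.61 and 8.51 FPKM in spring and 5.56 and 8.56 FPKM in winter. The lowest summer or autumn library was above every spring and winter library (2.53 ± 0.21, 5.79-fold higher, adjusted p = 5.2e-11), and the hour test gave 1.73 ± 0.23 (adjusted p = 6.9e-06). At hours 2 and 6 the difference was not called (0.43 and -0.33), and it was higher at hours 10, 18 and 22. Its group means ran from 5.69 to 9.12 FPKM in spring and 6.75 to 8.21 FPKM in winter over the day. rsrp1, which encodes an arginine and serine rich protein, had 423 and 474 FPKM in summer and 570.3 and 656 FPKM in autumn, against 193 and 193 FPKM in spring and 242 and 204 FPKM in winter, without overlap (1.33 ± 0.08), and was slightly lower at hour 2 (-0.22). Its autumn mean was 613 FPKM at hour 14 and 152 to 209.9 FPKM at the other hours, whereas its summer mean was highest at hour 18 (522 FPKM).

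**Figure D5:**
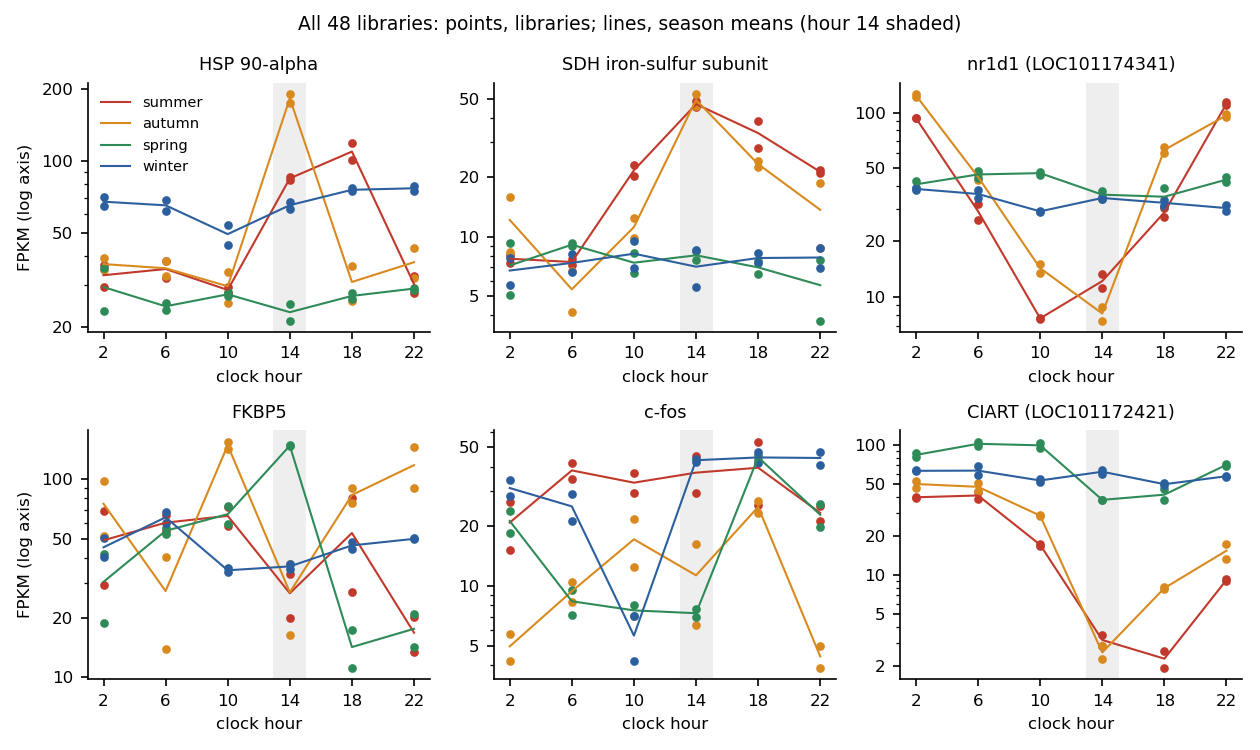
FPKM on a log axis against clock hour for 6 genes in all 48 libraries, with points for libraries and lines for season means, and hour 14 shaded. HSP 90-alpha peaks at hour 14 in autumn (183 FPKM) and at hour 18 in summer, the SDH subunit peaks at hour 14 in both, nr1d1 is low at hours 10 and 14 in summer and autumn alone, FKBP5 peaks at hour 14 in spring, c-fos is low in spring and high in winter at hour 14, and CIART is at its lowest in summer and autumn at hours 14 and 18.

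Genes that glucocorticoid hormones switch on in other vertebrates were listed together with the receptors of these hormones. Of the 10 tested that are not receptors, 8 were lower and 2 higher in summer and autumn at hour 14, beside 22.2% lower and 35.2% higher of all genes. per1, described above with the clock, is among the lower genes. Of all 13 in the list, 9 were lower and 2 higher (7 and 1 with hour 14 as 2 groups of 4). Reversal at another hour was seen for 5 of them, beside 2.78% of all genes. At hours 2, 6, 10, 18 and 22, 3, 3, 7, 4 and 2 of the 13 were higher and 5, 4, 4, 4 and 5 lower. All 16622 genes then gave 5236, 5219, 5158, 6169 and 5571 higher and 3785, 3425, 3672, 3354 and 3675 lower. The hour test called 1 of the 13 as more positive and 4 as more negative, beside 749 and 644 of all genes. Spring libraries were the highest for FKBP5 and klf9, and winter libraries for per1. LOC101157675, which encodes FKBP5, a glucocorticoid-induced brake on steroid receptors, had 33.3 and 19.8 FPKM in summer and 37.3 and 16.4 FPKM in autumn, against 147 and 149 FPKM in spring and 37.2 and 35.3 FPKM in winter. Both spring libraries stood far above the other 6. Autumn overlapped with winter, while both summer libraries were below both winter ones. The difference was -1.51 ± 0.33 (adjusted p = 0.00028), and spring exceeded winter by 2.00 ± 0.46 (adjusted p = 0.0055). That gap was larger at hour 14 than its mean over the 5 other hours by 2.62 ± 0.51 (adjusted p = 0.0035). The spring mean was 148 FPKM at hour 14 and 14.2 to 66.6 FPKM at the other hours. In autumn the mean reached 149 FPKM at hour 10 and was 26.8 FPKM at hour 14, and the seasons differed in the opposite direction at hour 10 (1.02) and hour 18 (1.25).

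klf9, a hormone-induced transcription factor, had 10.6 and 9 FPKM in summer and 8.17 and 5.12 FPKM in autumn, against 60.6 and 64.7 FPKM in spring and 26.1 and 26.8 FPKM in winter. Spring was highest, winter next, and all 4 summer and autumn libraries were lower (-2.22 ± 0.23, 4.66-fold lower, adjusted p = 3e-09). Spring exceeded winter by 1.21 ± 0.32, and that gap at hour 14 differed from the other hours by 1.42 ± 0.35 (adjusted p = 0.023). arrdc2, an arrestin-like gene outside the list, had 6.99 and 14.6 FPKM in summer and 7.18 and 7.62 FPKM in autumn, against 38.1 and 30.1 FPKM in spring and 6.35 and 4.27 FPKM in winter. Spring alone was high, summer and autumn overlapped, and winter was lowest. Spring exceeded winter by 2.49 ± 0.28 (adjusted p = 1.5e-06). ddit4, an inhibitor of the growth kinase mTORC1, was lower in summer and autumn (-0.87 ± 0.13), with no overlap and a difference in the same direction at hours 2, 6, 10 and 22. Of the 3 receptor genes, nr3c2, which encodes the mineralocorticoid receptor, was slightly lower (-0.19 ± 0.07, adjusted p = 0.02), a call lost without summer library 2 (-0.17), autumn library 1 (-0.17) or winter library 2 (-0.16) and with hour 14 as 2 groups of 4. The glucocorticoid receptor gene nr3c1 was 0.14 ± 0.08 (adjusted p = 0.13) and its second copy LOC100302444 was 0.00 ± 0.07 (adjusted p = 0.97), and neither passed the test.

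Immediate early genes, which neurons and other cells switch on within minutes of activity, divided the seasons in another way: many were higher at hour 14 in summer than in autumn and lower in spring than in winter. Of 26 tested, 10 were higher in summer than in autumn and 0 were lower, beside 0.475% and 0.283% of all genes. In spring, 11 were lower and 1 higher than in winter, beside 5.90% and 5.08% of all genes. Few of these gaps differed from those of the other hours. For summer minus autumn, 3 were more positive at hour 14 and 0 more negative, beside 90 and 76 of all 16622 genes. For spring minus winter, 1 was more positive and 6 more negative, beside 324 and 167. Against spring and winter together, summer and autumn had 8 members higher and 3 lower, no larger a share than the 35.2% and 22.2% of all genes, and 3 and 1 with hour 14 as 2 groups of 4. Their median was 0.06 in the deposited values, -0.02 with median-ratio and -0.01 with quantile scaling, so its sign depended on the scaling. The pooled contrast was less even at other hours. It had 2 higher and 17 lower at hours 2 and 22, 16 and 3 at hour 10, and 16 and 1 at hour 18. Among all 16622 genes, 3785 and 3675 were lower at hours 2 and 22, and 5158 and 6169 higher at hours 10 and 18. Of the 26, 5 were reversed and 3 absent at hour 14, beside 2.78% and 1.60% of all genes.

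c-fos, a subunit of the transcription factor AP-1, had 29.4 and 45.1 FPKM in summer and 6.33 and 16.3 FPKM in autumn, against 6.94 and 7.64 FPKM in spring and 43.8 and 42.3 FPKM in winter. Winter and summer libraries were all above autumn and spring ones, so summer exceeded autumn by 1.73 ± 0.33 (adjusted p = 0.0059) and spring was below winter by -2.41 ± 0.33 (adjusted p = 2.2e-05). The pooled contrast was 0.10 ± 0.23 (adjusted p = 0.72). egr1, a zinc finger factor of the same kind, had 51.5 and 76.6 FPKM in summer and 30.4 and 39.1 FPKM in autumn, against 29.04 and 33.2 FPKM in spring and 96.5 and 78.3 FPKM in winter, and its copy LOC101160576 had 9.67 and 10.5 FPKM in summer and 1.45 and 2.41 FPKM in autumn, against 2.60 and 2.62 FPKM in spring and 11.03 and 8.71 FPKM in winter. Both were lower in spring than in winter (-1.46 ± 0.19 and -1.58 ± 0.28) and higher in summer than in autumn (0.85 ± 0.19 and 1.94 ± 0.28). LOC101169519, an egr1-B gene, ier2 and LOC101167759, a c-fos copy, were likewise higher in summer than in autumn (0.59 ± 0.11, 1.12 ± 0.20 and 0.66 ± 0.12) and lower in spring than in winter (-0.74 ± 0.11, -1.05 ± 0.20 and -0.81 ± 0.12). npas4, which neurons switch on upon calcium entry, had 25.2 and 32.7 FPKM in summer, 9.42 and 11.8 in autumn, 11.6 and 13 in spring and 23.96 and 23.7 in winter. The gap between spring and winter was wider at hour 14 than over the other hours for c-fos (-1.90 ± 0.36, adjusted p = 0.0028), egr1 (-1.36 ± 0.20) and the egr4-like gene LOC101157090 (-1.56 ± 0.21). For npas4 that test was not passed (-0.62 ± 0.20, adjusted p = 0.098). fosb differed from the others, at 8.48 and 13.2 FPKM in summer, 3.21 and 3.34 in autumn, 10.9 and 14.3 in spring and 12.3 and 12.9 in winter, with autumn alone low.

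Differences in the same direction at every hour were found for 4546 genes, CIART (LOC101172421) and cry1 (LOC101160902) among them. The genes below are other members with high or low differences. LOC101161687, a GABA transporter 2-like gene whose product clears an inhibitory transmitter, had 29.4 and 32.1 FPKM in summer and 26.99 and 27.4 FPKM in autumn, against 3.56 and 4.11 FPKM in spring and 2.59 and 3.20 FPKM in winter. The groups lay far apart at 2.79 ± 0.15 (6.91-fold higher, adjusted p = 9.8e-15), and at the other hours the difference ran from 2.45 at hour 2 to 3.08 at hour 10. The tubulin gene LOC101168810 was 4.96-fold higher with 219.8 ± 5.36 FPKM in summer and autumn, against 43.9 ± 6.82 FPKM in spring and winter (SD, n = 4 each), and its relative LOC101160296 was 4.78-fold higher. fetuin-B (LOC101173833), a secreted protease inhibitor, was 4.70-fold higher, and Her4 (LOC100049439), a repressor that Notch signalling switches on in zebrafish, was 3.73-fold higher with 21.3 and 19.8 FPKM in summer and 26.9 and 23.6 FPKM in autumn, against 7.51 and 7.11 FPKM in spring and 6.18 and 2.31 FPKM in winter. LOC101163782, of the WASP-interacting family that acts on actin, was 3.36-fold higher. Tubulin and histone copies may share reads, and their separate values are less certain.

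Among the genes lower at every hour, matn3, a cartilage matrix gene, had 1.24 and 2.19 FPKM in summer and 1.14 and 2.26 FPKM in autumn, against 17.1 and 17.1 FPKM in spring and 15.9 and 17.5 FPKM in winter, without overlap, and the secreted protease gene meprin A (LOC101173759) was 6.93-fold lower. The histone genes LOC111947380 (H2B) and LOC101158068 (H2A) were 6.44-fold lower and 6-fold lower. jpt2, whose product binds microtubules, had 40.4 and 38.1 FPKM in summer and 37.8 and 41.1 FPKM in autumn, against 234 and 207 FPKM in spring and 271 and 286 FPKM in winter (-2.62 ± 0.11).

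In the pooled contrast, season differences at hour 14 alone were modest: 2 of the 91 genes were past 2-fold, and the median size was 0.32 on the log2 scale. sp4, a transcription factor of neurons, had 5.57 and 5.19 FPKM in summer and 5.46 and 5.67 FPKM in autumn, against 8.10 and 8.29 FPKM in spring and 8.42 and 9.08 FPKM in winter. The 4 summer and autumn libraries were below the 4 spring and winter libraries (-0.55 ± 0.09, adjusted p = 1.3e-05), and at the other hours the difference lay between -0.13 and 0.16. Such a pooled value can lie near 0 where single seasons stand apart. At hour 18, sp4 had 5.29 and 5.25 FPKM in summer and 9.13 and 8.59 FPKM in autumn. Spring then had 6.29 and 7.19 FPKM and winter 8.83 and 8.24 FPKM. slc30a1, a zinc exporter, had 3.47 and 3.32 FPKM in summer and 4.23 and 3.81 FPKM in autumn, against 5.84 and 5.94 FPKM in spring and 5.90 and 5.64 FPKM in winter (-0.54 ± 0.07, hour test -0.54 ± 0.08, adjusted p = 2e-05). c22h9orf72, the medaka counterpart of the human gene C9orf72, was higher with 7.51 ± 0.89 FPKM in summer and autumn, against 4.18 ± 0.38 FPKM in spring and winter (SD, n = 4 each) (0.71 ± 0.11). il15ra, a cytokine receptor subunit, had 4.43 and 2.69 FPKM in summer and 5.08 and 3.44 FPKM in autumn, against 11.04 and 11.3 FPKM in spring and 7.49 and 6.45 FPKM in winter. Its groups did not overlap (-1.03 ± 0.18), and spring minus winter was larger at hour 14 than at the other hours (1.32 ± 0.27). The ceramide-1-phosphate transfer protein gene LOC101155454 (-0.93 ± 0.19), the PECAM-type adhesion gene LOC101159590 (-0.53 ± 0.11), the endocytic recycling gene EHD4 (LOC101167502, -0.54 ± 0.11), zhx2 (-0.34 ± 0.10) and the mid1-interacting protein gene LOC101163585 (-0.54 ± 0.14) were lower. The mitochondrial glutamate carrier LOC101171405 was higher (0.46 ± 0.12). The hour test of EHD4 was not called without summer library 2 (-0.44), spring library 2 (-0.43) or winter library 2 (-0.41), that of LOC101163585 not without summer library 1 (-0.45), autumn library 2 (-0.44), spring library 1 (-0.47), spring library 2 (-0.52) or winter library 1 (-0.40), and that of LOC101171405 not without summer library 2 (0.44), autumn library 1 (0.45), spring library 2 (0.41) or winter library 2 (0.46).

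Other genes had a season difference at most hours that was not called at hour 14. NRK2 (LOC101167682), a kinase that makes a precursor of NAD, was higher in summer and autumn at hours 2, 6, 10, 18 and 22, at 1.63, 1.35, 1.75, 1.60 and 1.46, and at hour 14 it was 0.39 ± 0.21 (adjusted p = 0.11). Without autumn library 2 the hour-14 difference was called, at 0.58. The aerolysin-like gene LOC110014038 was lower at those hours and had 0.28 and 0.21 FPKM in summer and 0.19 and 0.24 FPKM in autumn, against 1.15 and 1.40 FPKM in spring and 0.56 and 0.38 FPKM in winter. The groups did not overlap at hour 14, but the difference of -0.57 ± 0.29 did not pass the test (adjusted p = 0.095). It passed at -1.42 with a pseudocount of 0.1, and at -0.57 with the hour-14 libraries alone. The receptor-transporting protein gene LOC101160725 was higher at hours 2, 6 and 18 and -0.33 ± 0.22 at hour 14. gatm, the enzyme of the first step of creatine synthesis, was reversed, with 4.16 and 4.15 FPKM in summer and 7.57 and 7.18 FPKM in autumn, against 12.5 and 11.1 FPKM in spring and 17.2 and 18.4 FPKM in winter (-1.24 ± 0.10) and a difference of 0.71 at hour 6. FAM57B (LOC101168462) was reversed the other way, at 1.18 ± 0.17 against -0.76 at hour 10.

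Pituitary hormone genes did not move alike over the day. Just 1 of the 11 tested was called in the same direction at all 6 hours, beside 27.3% of all genes. Reversal at another hour was seen for 2, and 1 was absent at hour 14, beside 2.78% and 1.60% of all genes. Of 11 tested, 3 were higher and 5 lower in summer and autumn at hour 14, beside 35.2% and 22.2% of all genes (with hour 14 as 2 groups of 4, 1 was higher and 2 lower). At hours 2, 6, 10, 18 and 22, 6, 6, 1, 5 and 5 were higher and 3, 3, 3, 0 and 2 lower. All 16622 genes then gave 5236, 5219, 5158, 6169 and 5571 higher and 3785, 3425, 3672, 3354 and 3675 lower. The hour test called 4 as more negative and 0 as more positive, beside 3.87% and 4.51% of all genes. lhb, the beta subunit of luteinizing hormone, had 90.8 and 128 FPKM in summer and 26.01 and 21.5 FPKM in autumn, against 9.71 and 11.2 FPKM in spring and 7.78 and 7.60 FPKM in winter. Summer was far above autumn, and both were above spring and winter (2.38 ± 0.21, 5.20-fold higher, adjusted p = 2.7e-10). The difference at hour 14 was the smallest of the 6 hours, with 3.74 at hour 22, and the hour test gave -0.87 ± 0.23 (adjusted p = 0.018), not called without summer library 1 (-0.74), autumn library 2 (-0.80) or spring library 2 (-0.82). cga, the alpha subunit that luteinizing, follicle-stimulating and thyroid-stimulating hormones share, had 481 and 749.6 FPKM in summer and 297 and 263 FPKM in autumn, against 583 and 540.2 FPKM in spring and 618 and 441 FPKM in winter. Summer overlapped with spring and winter and autumn was below them, so the pooled difference was -0.40 ± 0.15, while it was 0.51 at hour 2 and 0.71 at hour 6. The hour-14 difference was not called without summer library 1 (-0.24), autumn library 2 (-0.36), spring library 1 (-0.37) or winter library 1 (-0.28), nor with the hour-14 libraries alone, as 4 groups or as 2 groups of 4.

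The somatolactin gene LOC100049402, a fish pituitary hormone of the growth hormone family, had 90.2 and 181 FPKM in summer and 84.6 and 70.7 FPKM in autumn, against 277 and 187 FPKM in spring and 91 and 122 FPKM in winter. The groups overlapped, it was lower in the pooled contrast by -0.63 ± 0.26 (adjusted p = 0.04), and it was higher at hours 2, 6, 18 and 22 (up to 1.55 at hour 18). Its hour-14 difference was not called without summer library 1 (-0.39), autumn library 1 (-0.70), autumn library 2 (-0.57), spring library 1 (-0.49) or winter library 2 (-0.53), nor with hour 14 as 2 groups of 4. The prolactin gene LOC101172582 was absent at hour 14, with 1242 and 1847 FPKM in summer and 1379 and 1650.1 FPKM in autumn, against 3195 and 1923 FPKM in spring and 1343 and 866 FPKM in winter (-0.11 ± 0.20), and higher at hours 2, 6, 18 and 22. Its hour test (-0.84 ± 0.21) was not called without summer library 1 (-0.70), spring library 1 (-0.66) or winter library 1 (-0.68), nor after quantile normalization (-0.63). Somatotropin (LOC101171460), the growth hormone, had 1181 and 1600.4 FPKM in summer and 1098 and 1366 FPKM in autumn, against 3075 and 4139.9 FPKM in spring and 1915 and 1536 FPKM in winter. Spring was highest, and summer and autumn were lower in the pooled contrast (-0.93 ± 0.26). pomc, the precursor of the stress hormone ACTH, had 229 and 347 FPKM in summer and 1119.7 and 508 FPKM in autumn, against 199.7 and 282 FPKM in spring and 355 and 338 FPKM in winter, with the 2 autumn libraries far from each other and above the rest (0.68 ± 0.22, adjusted p = 0.0087), and not called without summer library 2 (0.53), autumn library 1 (0.40) or spring library 1 (0.56), nor with hour 14 as 2 groups of 4. The summed level of the pituitary markers, which include these hormones, was 3402.9 to 4988.8 FPKM in summer and 3931.6 to 4058.6 FPKM in autumn, against 7041.3 to 7373.9 FPKM in spring and 3354.1 to 4416.6 FPKM in winter. Its part in these results was not tested. In a tissue block, fewer cells of a type and less RNA per cell cannot be told apart.

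Neuropeptides are short signals made by neurons, many of them in the hypothalamus. Of 36 tested genes for them, 12 were higher and 6 lower in summer and autumn (6 and 5 with hour 14 as 2 groups of 4), no larger a share than the 35.2% and 22.2% of all genes. limma's hour test called 0 of them in either direction, with 3 at an unadjusted p below 0.05. The peptide YY-like gene LOC101160582 had 42.9 and 52.7 FPKM in summer and 10.6 and 11.8 FPKM in autumn, against 6.61 and 7.45 FPKM in spring and 7.87 and 5.89 FPKM in winter. Summer was above autumn and autumn above the rest (1.62 ± 0.24, 3.07-fold higher), with 1.96 at hour 6. A neuropeptide B gene, npb_105354556, had 274 and 299 FPKM in summer and 68.6 and 89 FPKM in autumn, against 57.1 and 60.7 FPKM in spring and 83.3 and 67.1 FPKM in winter, and its summer libraries stood apart from all others (1.16 ± 0.13). gnrh1, which encodes the hormone that drives the gonadotropins, had 3.56 and 3.73 FPKM in summer and 0.59 and 1.46 FPKM in autumn, against 0.55 and 0.48 FPKM in spring and 1.12 and 0.81 FPKM in winter, high in summer alone (0.82 ± 0.25), although summer against autumn did not pass the test (1.23 ± 0.36, adjusted p = 0.13). Its pooled difference was not called without autumn library 2 (0.66), and neither it nor that of npb_105354556 was called with hour 14 as 2 groups of 4. crh, the peptide that releases ACTH, was higher by 0.48 ± 0.10, and tac1, the substance P precursor, was lower by -0.82 ± 0.15. hcrt, the arousal peptide orexin, was lower at hour 14 (-0.69 ± 0.16), while npy, an appetite peptide, was lower by -0.43 ± 0.11. oxt, the oxytocin-type precursor, did not pass the test in the pooled contrast (0.01 ± 0.16, adjusted p = 0.96) but had 61.8 and 86.7 FPKM in summer and 79.4 and 79.1 FPKM in autumn, against 43.2 and 49.6 FPKM in spring and 134 and 113 FPKM in winter. Spring was lowest and winter highest, a gap of -1.39 ± 0.23 that was wider than over the other hours (-1.07 ± 0.25, adjusted p = 0.014).

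cyp19b, the brain form of aromatase that makes estrogen in radial glia, had 437 and 552 FPKM in summer and 106 and 107 FPKM in autumn, against 172 and 188 FPKM in spring and 83.7 and 66.2 FPKM in winter. Within each pair of seasons 1 was high, summer over autumn by 2.20 ± 0.16 and spring over winter by 1.26 ± 0.16, so the pooled groups overlapped. The pooled difference was called (0.98 ± 0.12, adjusted p = 4.1e-08), but not with hour 14 as 2 groups of 4. Of the 7 genes for aromatase and steroid receptors tested, 1 was higher and 3 lower, beside 35.2% and 22.2% of all genes. The lower ones were the estrogen receptor gene esr2_100049269 (-0.68 ± 0.06), esr1 (-0.28 ± 0.10) and the androgen receptor gene ar-alpha (-0.21 ± 0.09). esr1 was not called without summer library 1 (-0.21) or winter library 1 (-0.21), and ar-alpha not without summer library 1 (-0.19), summer library 2 (-0.22), autumn library 2 (-0.16), spring library 1 (-0.22), spring library 2 (-0.20) or winter library 1 (-0.14); neither was called with hour 14 as 2 groups of 4. Of 6 thyroid hormone genes, dio3, which inactivates thyroid hormone, was higher (0.56 ± 0.09), thrb was higher (0.25 ± 0.06) and a thyroid hormone receptor alpha gene, LOC101167294, was lower (-0.61 ± 0.06). These 2 higher and 1 lower were no larger a share than the 35.2% and 22.2% of all genes.

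Chaperones of the endoplasmic reticulum fold secreted proteins and were largely higher: of 21 tested, 14 were higher and 1 lower in summer and autumn at hour 14, beside 35.2% and 22.2% of all genes, with a median difference of 0.38, beside 0.08 for all genes. The lean was not particular to hour 14: 13, 10, 12, 18 and 13 were higher at hours 2, 6, 10, 18 and 22. The lower members at those hours numbered 1, 1, 1, 1 and 0. At hour 14 the lean was widest against spring, with 13 higher and 0 lower in summer, and 15 and 0 in autumn. Against winter, 6 were higher and 2 lower in summer, and 12 and 1 in autumn. For these 4 pairs in turn, all 16622 genes gave 4547 and 2815, 4672 and 2763, 4503 and 3095, and 4468 and 2951. The hour test called 4 as more positive and 0 as more negative, beside 4.51% and 3.87% of all genes. pdia3, a disulfide isomerase, had 36.8 and 32.2 FPKM in summer and 40.2 and 41.3 FPKM in autumn, against 13.01 and 13.4 FPKM in spring and 21.3 and 22.9 FPKM in winter, with no overlap (1.09 ± 0.07). hsp90b1, the HSP90 of this compartment, was higher by 0.73 ± 0.06 and more so at hour 14 than elsewhere (0.36 ± 0.07). hspa5, the central chaperone BiP, had 102 and 106 FPKM in summer and 132 and 128 FPKM in autumn, against 75.2 and 76.7 FPKM in spring and 130.4 and 140.4 FPKM in winter. Spring was low and winter level with autumn, so the groups overlapped (0.19 ± 0.04, not called after median-ratio scaling at 0.10 nor with hour 14 as 2 groups of 4), and at hour 6 the difference was -0.21. Of 88 genes of oxidative phosphorylation, 44 were higher and 6 lower (40 and 2 with hour 14 as 2 groups of 4), with a median of 0.28; after median-ratio scaling 38 were higher and 10 lower. Of 39 splicing factors 21 were higher and 5 lower, of 43 proteasome genes 6 were higher and 13 lower (4 and 7 with hour 14 as 2 groups of 4), and of 82 ribosomal protein genes 5 were higher and 14 lower (8 and 15 with hour 14 as 2 groups of 4). These counts stand beside 35.2% higher and 22.2% lower of all genes. Scaling moved these last counts: after median-ratio scaling 3 ribosomal protein genes were higher and 27 lower, and after quantile normalization 11 were higher and 16 lower. The lean of ribosomal protein genes was not the same at all hours. At hours 2, 6, 10, 18 and 22, 5, 6, 6, 30 and 17 were higher and 15, 16, 23, 4 and 7 lower. The hour test called 0 of the 82. Oxidative phosphorylation genes were more often higher than lower at the other hours too, with 49, 51, 36, 64 and 54 higher at hours 2, 6, 10, 18 and 22. Lower at those hours were 5, 5, 9, 4 and 3, and the hour test called 4 more positive and 1 more negative. Among all 16622 genes, 5236, 5219, 5158, 6169 and 5571 were higher at those hours and 3785, 3425, 3672, 3354 and 3675 lower.

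Genes for making cholesterol and fatty acids gave 18 higher and 8 lower of 38 tested, beside 35.2% and 22.2% of all genes, so the share that was lower was near that of all genes. lss, lanosterol synthase, had 2.74 and 4.60 FPKM in summer and 4.47 and 3.20 FPKM in autumn, against 0.96 and 0.54 FPKM in spring and 0.98 and 1.19 FPKM in winter, without overlap (1.30 ± 0.18), and was higher at all 6 hours. msmo1, a later enzyme of the same route, was higher at hour 14 (0.84 ± 0.16) and hour 10 (0.77), and its hour test gave 0.65 ± 0.17 (adjusted p = 0.018), not called without summer library 2 (0.55) or winter library 1 (0.53). The acyl-CoA desaturase gene LOC105353580, which puts double bonds into fatty acids, was lower at all 6 hours (-1.10 ± 0.08). Its relative LOC101160599 had 93.9 and 102 FPKM in summer and 104.8 and 102 FPKM in autumn, against 110.1 and 116 FPKM in spring and 119.9 and 120.3 FPKM in winter, a difference of -0.21 ± 0.06 that was nearer to 0 than at the other hours (hour test 0.43 ± 0.06, adjusted p = 3.8e-05).

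The few genes that separated summer from autumn at hour 14 were led by f13a1, the A chain of coagulation factor XIII. It had 26.4 and 28.6 FPKM in summer and 0.42 and 0.36 FPKM in autumn, against 1.13 and 2.49 FPKM in spring and 0.86 and 0.41 FPKM in winter. Both summer libraries were above all others, and summer exceeded autumn by 4.36 ± 0.37 (adjusted p = 2.2e-08). The embryonic hemoglobin entry LOC101155030 had 12.9 and 34.6 FPKM in summer and 0.38 and 0.45 FPKM in autumn, against 3.25 and 3.22 FPKM in spring and 12.2 and 14.2 FPKM in winter, with autumn lowest and summer against autumn at 3.98 ± 0.55; its second copy gb_101174505 followed (2.78 ± 0.40). On the autumn side, cyp26b1, which degrades retinoic acid, had 1.61 and 1.47 FPKM in summer and 7.84 and 8.88 FPKM in autumn, against 2.61 and 2.14 FPKM in spring and 2.81 and 2.35 FPKM in winter (-1.88 ± 0.18), and cabp5, a calcium-binding protein gene, had 8.95 and 11.6 FPKM in summer and 30.5 and 30.4 FPKM in autumn, against 13.7 and 11.8 FPKM in spring and 22.2 and 12.3 FPKM in winter (-1.49 ± 0.27). The methyltransferase-like gene LOC101157984 was higher in autumn as well (-1.78 ± 0.35), and for this gene the gap was wider at hour 14 than at the other hours (-1.64 ± 0.38, adjusted p = 0.028). That limma test was not passed by f13a1 (0.31, adjusted p = 0.86), cyp26b1 (-0.06, adjusted p = 0.96) or cabp5 (-0.50, adjusted p = 0.55). Nor was it passed by LOC101155030 (2.35, adjusted p = 0.056) or gb_101174505 (1.47, adjusted p = 0.11).

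Between spring and winter, LOC101173877, a cartilage intermediate layer protein gene, had 0.11 and 0.11 FPKM in summer and 0 and 0 FPKM in autumn, against 8.55 and 5.06 FPKM in spring and 0.06 and 0 FPKM in winter. It was high in spring alone (2.89 ± 0.39, adjusted p = 1.6e-05). The claudin-4 gene LOC101159933 had 10.2 and 2.35 FPKM in spring, against 0.58 and 0.05 FPKM in winter, and 5.12 and 1.35 FPKM in summer and 1.06 and 1.84 FPKM in autumn, so that 1 library stood high in summer and in spring. In the mixed pairs, the intermediate filament gene ON3 (LOC101167707) was higher in summer than in winter, with 67.4 and 18.1 FPKM in summer and 4.01 and 0.88 FPKM in winter. The zinc finger gene LOC101172276 was higher in autumn than in spring, with 10.6 and 10.8 FPKM in autumn and 0.93 and 0.94 FPKM in spring. LOC105356879, a homolog of the elongation factor RTF1, was lower in autumn than in winter, with 1.93 and 0 FPKM in autumn and 18.9 and 12.4 FPKM in winter. This call was at the edge of the threshold (-3.25 ± 1.34, adjusted p = 0.049975). A pair of U2 splicing RNA entries with identical values, LOC111948527 and LOC111948528, is listed at 0 in both summer libraries and had 0.29 and 0.47 FPKM in autumn, 8.75 and 11.9 FPKM in spring and 0 and 7.45 FPKM in winter.

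Markers of cell types at hour 14 are given as counts of called members, beside 35.2% higher and 22.2% lower of all genes. Neuronal markers had 17 higher and 0 lower of 22 tested (10 and 0 after median-ratio scaling), myelin markers 7 and 0 of 11, radial glia markers 7 and 3 of 12, and microglia and macrophage markers 5 and 1 of 14, a higher share near that of all genes (1 and 1 with hour 14 as 2 groups of 4). Endothelial markers had 1 higher and 2 lower of 10. Red blood cell markers had 6 higher and 0 lower of 9, and their summed level was 1734.9 to 2262.9 FPKM in summer and 1203.4 to 1204.5 FPKM in autumn, against 434.58 to 537.92 FPKM in spring and 972.94 to 1134.0 FPKM in winter. The hemoglobin gene gb_101170712 had 1014 and 766 FPKM in summer and 559 and 559 FPKM in autumn, against 216 and 266 FPKM in spring and 619 and 515 FPKM in winter (0.93 ± 0.19). Myelin markers summed to 1630.6 to 2009.9 FPKM in summer and 2259.6 to 2270.0 FPKM in autumn, against 1379.8 to 1422.3 FPKM in spring and 1261.5 to 1498.4 FPKM in winter. Radial glia markers, cyp19b among them, summed to 2420.3 to 2671.0 FPKM in summer and 2112.7 to 2127.4 FPKM in autumn, against 1425.0 to 1528.7 FPKM in spring and 1326.7 to 1369.3 FPKM in winter. The part of these sums in the results of single genes was not tested. At hour 2, 7 red blood cell and 7 myelin markers were higher and 1 of each was lower, beside 31.5% higher and 22.8% lower of all genes.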

How the data were processed

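RNA was measured in 48 libraries: 4 seasons, 6 clock hours and 2 libraries per group. Libraries were poly-A selected, strand-specific and paired-end, per the labels. The authors deposited 1 table of FPKM values for 26167 genes. Per the submitters' processing notes, Bowtie2 2.2.5 and RSEM 1.2.12 were used; the genome build is not given in the sources used here, nor is the annotation. Of the gene IDs, 25080 matched the RefSeq gene table (ASM223467v1), which gave names only. Low FPKM values showed no whole-read steps, so depth is unknown and no counting interval is given.

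Genes with a mean of at least 1 FPKM over the 48 libraries (16622) were tested as log2(FPKM + 1) with limma 3.58.1 (trended variance) in R 4.3.3. The 24 groups were fitted together with no covariate, so the spread is shared by all groups, and p-values were adjusted by Benjamini-Hochberg over all tested genes. The contrasts were summer and autumn minus spring and winter at each hour, hour 14 minus the mean of the other hours, and season pairs. Tests of pairs against other hours were added after seeing the data. The members and lists were chosen with earlier results of these data known.

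Genes were named where called, without overlap between the 4 libraries of each side (for pairs, between the 2 seasons; not required of genes absent at hour 14) and at 5 FPKM or more. They were the 8 highest and 8 lowest differences, the 10 largest hour effects among the genes at hour 14 alone and among the reversed, the 6 largest among the absent, the 3 highest and 3 lowest of each pair, and members of the lists, less any not reported here; immediate early genes and other list members given as examples were chosen after their values were seen. The list of cold-inducible RNA-binding proteins had 1 tested member, cirbp, which was not called at hour 14. The alternatives were the pseudocount (0.1), no filter, median-ratio scaling, quantile normalization, the libraries in the fit, the threshold, each library left out, and the library number as a block. Identical values in all libraries were found for 273 genes that share them with another gene, 10 of them tested.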

Additional observations from a re-analysis of the deposited data

Results flagged for a closer look

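Of the 136 genes named in the report, 78 had a season difference at hour 14 that differed from its mean over the 5 other hours by limma's test of that difference, with an adjusted p below 0.05. The value was more negative at hour 14 for 39 of them and more positive for 39. Because the report picked many of its genes for this property, the share says nothing about genes at large, and the values below, hour 14 minus the mean of the other hours on the log2 scale, are given as a description.

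Among the clock repressors and their output factors, the more negative values were -2.24 for LOC101173939 and -1.99 for LOC101174341 (nr1d1), -1.07 for LOC101156434 and -0.53 for LOC101163230 (nr1d2), -2.19 for LOC101163688 (HLF), -1.96 for LOC101172421, -1.15 for LOC101157319 and -0.92 for LOC101174020 (CIART), -1.42 for per1, -1.21 for bhlhe41, -1.23 for LOC101157237 and -0.96 for LOC101170972 (CIPC), -1.02 for LOC101172818 and -0.93 for LOC101159928 (TEF), -0.63 for LOC101160902 (cry1) and -0.31 for LOC101173389 (cry2). The more positive values in the same loop were 1.71 for LOC101175377 (NFIL3), 1.43 for LOC101170052 (ROR-beta-like), 1.09 for LOC101174986, 0.71 for LOC101164536 and 0.48 for LOC101167667 (cry1), 0.75 for per2, 0.73 for LOC101159313 (BMAL type), 0.51 for LOC101172430 (NPAS2 type) and 0.41 for LOC101165450 (CLOCK). All the light-regulated and DNA repair genes in this set were more positive, with 1.47 for lonrf3, 1.04 for LOC101171754, 1.03 for ddb2, 0.91 for lonrf1, 0.71 for xpc, 0.57 for lonrf2, 0.55 for neil1 and 0.54 for LOC100049426.

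Most chaperone genes named in the report were more positive at hour 14, with 1.85 for LOC101169506 (HSP 90-alpha), 1.71 for LOC111947723 (HSP70), 1.28 for LOC100125490 (heat shock cognate 70), 1.10 for LOC101166714 (DnaJ), 0.69 for fkbp4, 0.58 for hsf1, 0.51 for hspa4l, 0.48 for stip1, 0.36 for hsp90b1, 0.17 for hsp90ab1 and 0.17 for hspa5. In the list of heat shock proteins and co-chaperones 4 of the 41 tested were more negative, with -0.53 for dnajb5, -0.43 for hsf2, -0.27 for LOC101162427 and -0.16 for LOC101174218. The hormone genes in this set were more negative, with -1.41 for LOC100049402 (somatolactin), -0.87 for lhb, -0.84 for LOC101172582 (prolactin) and -0.75 for cga, as were -2.08 for LOC101157675 (FKBP5) and -1.54 for klf9.

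The other more positive genes were 1.73 for LOC101170091 (SDH iron-sulfur subunit), 1.46 for LOC101168462 (FAM57B), 1.31 for LOC110014038 (aerolysin-like), 1.22 for rsrp1, 0.79 for cabp5, 0.65 for msmo1, 0.53 for c22h9orf72, 0.53 for LOC101157090 (egr4-like), 0.48 for LOC101171405 (mitochondrial glutamate carrier), 0.43 for LOC101160599 (acyl-CoA desaturase) and 0.37 for LOC101169519 (egr1-B). The other more negative genes were -1.38 for gatm, -1.17 for LOC101167682 (NRK2), -1.14 for LOC101160725 (RTP3), -1.01 for il15ra, -1.0 for LOC101155454 (ceramide-1-phosphate transfer), -0.60 for LOC101159590 (PECAM type), -0.57 for sp4, -0.54 for slc30a1, -0.52 for LOC101158068 (histone H2A), -0.50 for LOC101163585 (mid1-interacting protein), -0.49 for zhx2, -0.48 for LOC101167502 (EHD4) and -0.42 for jpt2. Beyond those the report names, the hour tests of LOC101157090, LOC101158068, LOC101163230, LOC101174218, cabp5, hsp90ab1, hspa5, jpt2 and neil1 were each not called without some 1 of the 8 hour-14 libraries: neil1 without summer library 2 (0.47), cabp5 without summer library 2 (0.70), spring library 2 (0.74) or winter library 2 (0.59), LOC101163230 without summer library 2 (-0.47), autumn library 2 (-0.45) or winter library 1 (-0.48), LOC101174218 without summer library 2 (-0.15), autumn library 1 (-0.16), autumn library 2 (-0.16), spring library 2 (-0.14), winter library 1 (-0.16) or winter library 2 (-0.17), hspa5 without summer library 2 (0.16), autumn library 1 (0.16), spring library 1 (0.17) or winter library 1 (0.15), jpt2 without summer library 2 (-0.40), autumn library 1 (-0.39), spring library 1 (-0.38) or winter library 2 (-0.40), LOC101158068 without summer library 1 (-0.39), autumn library 1 (-0.56), autumn library 2 (-0.49), spring library 1 (-0.42), winter library 1 (-0.57) or winter library 2 (-0.47), LOC101157090 without summer library 1 (0.53), summer library 2 (0.52), autumn library 2 (0.50), spring library 1 (0.50), spring library 2 (0.55) or winter library 2 (0.49), and hsp90ab1 without summer library 1 (0.12), autumn library 1 (0.19), autumn library 2 (0.16), spring library 1 (0.19), spring library 2 (0.16), winter library 1 (0.17) or winter library 2 (0.17).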

How the results depend on the processing

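Every alternative planned or added was run except the promoter motif count, which needs sequences not used here. The counts of called genes at hour 14, of the hour test and of genes called alike at all 6 hours stayed within 1.5 times under another pseudocount, no filter on low values, median-ratio scaling, quantile normalization and the library number as a replicate block. With the hour-14 libraries fitted alone, 46 genes differed between summer and autumn and 1157 between spring and winter. With hours 10 and 18 as the only other hours, the hour test called 660 genes, 248 more positive and 412 more negative. At an adjusted p below 0.01, 43 genes were at hour 14 alone, 191 were reversed and 162 were absent at hour 14. The cause was not tested. The hour test's balance of more positive and more negative genes turned with the scaling (638 and 701 after median-ratio scaling).

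When 1 of the 8 libraries was left out, summer against autumn called 30 to 120 genes and spring against winter 777 to 1792. For hour 14 against the other hours, the pairs called 61 to 161 genes for summer against autumn, 163 to 407 for summer against spring, 70 to 220 for summer against winter, 906 to 1723 for autumn against spring, 570 to 1188 for autumn against winter and 157 to 473 for spring against winter, and 45 to 68 genes were at hour 14 alone. Of the 9546 genes called at hour 14, between 8544 and 8598 were still called, and 0 changed sign. Without summer library 2 or autumn library 1, summer against autumn had 30 or 36 genes. For the named genes, 4080 alternative values were computed: 156 lost the call, 21 gained it and 0 changed sign with a call in either fit. Sign changes of values called in neither fit were not counted.

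Library numbers did not pair the samples: deviations of equally numbered libraries correlated at -0.07 to 0.13 between seasons. With the number as a replicate block, 9562 genes were called at hour 14 and 1401 by the hour test, and the block changed no call of a named gene. With 2 libraries a season and unknown depth, small differences in genes near 1 FPKM are the least certain.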
